A study of Mus musculus with 6 samples.

Results

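The cells described here are pericytes of the mouse amygdala that were sequenced by single-cell RNA sequencing (scRNA-seq) next to sorted astrocytes. Pericytes are the mural cells of capillaries. They sit inside the basement membrane of the vessel wall, wrap the endothelium, depend on platelet-derived growth factor signalling through *Pdgfrb*, and are known for their part in capillary tone and in upkeep of the blood-brain barrier. In the brain the outer face of that basement membrane is covered by astrocyte endfeet, so the pericyte and the astrocyte are neighbours across a thin sheet of matrix. Of 13546 barcodes in 3 libraries, 2188 were pericytes by the rule used here, with 850 in library 1, 641 in library 2 and 697 in library 3. A barcode was counted as a pericyte when it had at least 500 genes and under 6% mitochondrial UMIs, at least 10 UMIs of *Vtn* and *Rgs5* together, at most 5 UMIs of the glutamate transporter genes *Slc1a2* and *Slc1a3* together, under 5 UMIs of the smooth muscle actin gene *Acta2* and under 3 UMIs of the stromal proteoglycan gene *Dcn*. A UMI is a molecular tag that marks 1 captured transcript. The rule took no account of the mouse a cell came from.

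The labels give all mice as male Wildtype animals of the strain C57BL/6N, and the methods name young adult C57BL/6NCrSlc mice of both sexes for the experiments of the study. No transgene, Cre driver or deletion is named for these libraries. Each library pooled sorted amygdala cells of several mice that had been taken 90 min after the start of behaviour, with 8 mice in library 1, 4 in library 2 and 4 in library 3. The 16 mice belonged in equal numbers to the non-shocked (NoFC), fear-conditioned (FC), conditioned but not recalled (NoFR) and recalled (FR) groups. The groups were mixed in the libraries in unequal numbers and were not compared here. Library 2 held no NoFR mouse and library 3 no FC mouse. The tissue was dissociated in the presence of actinomycin D, triptolide and anisomycin, which block transcription and translation, and the cells were sorted with the antibody ACSA-2 against ATP1B2, the β2 subunit of the sodium pump, a sort intended for astrocytes. Astrocytes for comparison were the 8136 barcodes with at least 20 *Slc1a2* and *Slc1a3* UMIs and at most 3 *Vtn* and *Rgs5* UMIs, of which 3316 were in library 1, 2340 in library 2 and 2480 in library 3. The labels call all sorted cells astrocytes, while the methods state that pericytes were taken out of the amygdala cells by *Pdgfrb* before the study's own analysis. Among the 11103 barcodes that passed the gene and mitochondrial filters, pericytes made up 19.8% of library 1 (95% Wilson interval 18.7% to 21.1%), 20.8% of library 2 (19.4% to 22.3%) and 18.6% of library 3 (17.4% to 19.9%), intervals that cover counting error only. These shares reflect the sort and are not shares of the tissue.

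The libraries held 42350059, 31700569 and 33368825 UMIs of genes over all barcodes, of which 4261039, 3436138 and 3625517 lay in pericytes. Library 3 stood apart from the others, since it held 561 filtered barcodes in neither class, against 120 in library 1 and 98 in library 2. It also held the only 2 astrocyte barcodes that reached 3 *Dcn* UMIs, one of them with 89, where the highest astrocyte value was 1 in libraries 1 and 2, since the astrocyte rule had no *Dcn* limit. Without these barcodes the astrocyte UMIs in library 3 went from 35 to 5 for *Tbx18*, from 27 to 2 for *Slc6a13*, from 15 to 0 for *Lum* and from 36 to 19 for *Zic1*, and stayed at 8 for *Gja4*. Other genes given below fell as well, among them *Igfbp7* from 138 to 58, *Nid1* from 28 to 12 and *Eng* from 11 to 4. *Slc6a20a* went from 99 to 56, *Ifitm3* from 83 to 46 and *Slc22a8* from 14 to 7. The 3 libraries shared 18 barcode sequences between them, 1 of which was a pericyte barcode in libraries 1 and 3. Pericytes were chosen by the UMIs of 6 genes in these same cells (*Vtn*, *Rgs5*, *Slc1a2*, *Slc1a3*, *Acta2* and *Dcn*), so the levels of these genes are given with no test. Near the limits were 23 pericytes at 10 to 14 *Vtn* and *Rgs5* UMIs and 35 otherwise fitting barcodes left out at 5 to 9. At the *Slc1a2* and *Slc1a3* limit, 62 pericytes had 4 or 5 UMIs and 15 barcodes left out had 6 or 7. The median pericyte had 92 UMIs of *Vtn* and *Rgs5*, with a lowest value of 10 and a highest of 273. Another 100 barcodes met the *Vtn* and *Rgs5* limit of pericytes and the *Slc1a2* and *Slc1a3* limit of astrocytes at once, and counted as neither.

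Of the 6 markers taken for pericytes, *Vtn* and *Rgs5* defined the class and the other 4 did not enter the rule. The start regions of the markers are shown first, since the report turns on these genes, and the RefSeq promoter table on GRCm38.p6 held 4 of them. Each sequence runs from 250 bases before to 50 bases after the gene's start, 5′ to 3′ on the gene's strand. Capitals mark TGGGAA or its reverse complement TTCCCA, the core letters known to be bound by RBPJ, the DNA-binding partner of Notch receptors. *Vtn* encodes the matrix protein vitronectin and *Rgs5* a regulator of G protein signalling.
Vtn, chr11:78498870-78499169, forward strand: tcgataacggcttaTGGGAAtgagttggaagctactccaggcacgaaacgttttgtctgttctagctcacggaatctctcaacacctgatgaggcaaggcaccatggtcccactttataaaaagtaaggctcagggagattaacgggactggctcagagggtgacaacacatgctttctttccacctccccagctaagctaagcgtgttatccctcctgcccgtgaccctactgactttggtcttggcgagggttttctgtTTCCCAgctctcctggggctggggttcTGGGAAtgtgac
Rgs5, chr1:169655251-169655550, forward strand: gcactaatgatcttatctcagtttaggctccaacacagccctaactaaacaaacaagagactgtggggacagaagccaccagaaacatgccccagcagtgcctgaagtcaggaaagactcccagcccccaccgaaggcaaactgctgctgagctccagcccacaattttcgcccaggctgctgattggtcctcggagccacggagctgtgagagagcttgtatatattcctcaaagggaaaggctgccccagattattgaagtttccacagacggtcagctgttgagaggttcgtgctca
Abcc9, chr6:142702225-142702524, reverse strand: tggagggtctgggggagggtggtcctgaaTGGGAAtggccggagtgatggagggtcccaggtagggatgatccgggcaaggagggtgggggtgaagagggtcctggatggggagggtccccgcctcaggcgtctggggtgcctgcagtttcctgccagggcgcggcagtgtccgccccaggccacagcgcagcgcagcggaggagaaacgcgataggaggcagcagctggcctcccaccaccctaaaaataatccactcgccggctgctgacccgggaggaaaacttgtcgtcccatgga
Kcnj8, chr6:142571565-142571864, reverse strand: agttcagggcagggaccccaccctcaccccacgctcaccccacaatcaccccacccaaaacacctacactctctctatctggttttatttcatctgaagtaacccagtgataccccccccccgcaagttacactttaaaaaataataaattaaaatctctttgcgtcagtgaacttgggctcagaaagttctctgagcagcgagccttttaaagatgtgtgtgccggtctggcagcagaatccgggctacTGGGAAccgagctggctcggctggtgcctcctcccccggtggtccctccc

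The letters TGGGAA were present in 3 of these 4 windows, *Vtn*, *Abcc9* and *Kcnj8*, and in 25.6% of the 32851 promoter windows of the table, searched on both strands. The forkhead core TGTTTAC (3.65% of all windows), the T-box core TCACACC (3.98%) and the hypoxia response core ACGTG (19.6%), likewise searched on both strands, were in 0 of the 4. A match is only a run of letters and no binding was measured. *Kcnj8* and *Abcc9* are neighbours on the reverse strand of chromosome 6, at 142564837 to 142571614 and 142587862 to 142702315 on GRCm38 in GENCODE vM21. *Kcnj8* encodes Kir6.1, the pore subunit of the vascular ATP-sensitive potassium channel, and *Abcc9* encodes its regulatory partner SUR2.

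Levels are given in CPM, the share of a gene in the summed UMIs of a class in a library, counted per 1e6 UMIs and scaled by TMM, listed for libraries 1, 2 and 3 in that order. Because UMIs are read at the transcript end, gene length does not enter, but capture differs between genes, so levels are compared between cells and not between genes. *Abcc9* was at 1548, 1684 and 1514 CPM in pericytes and 0.541, 0.694 and 0.858 CPM in astrocytes. *Kcnj8* was at 955, 1032 and 978 CPM in pericytes and 0.601, 0.286 and 0.546 CPM in astrocytes. Both channel genes were thus about 3 orders of magnitude apart between the classes in every library. *Higd1b*, a hypoxia-inducible domain family gene known as a marker of brain pericytes, was at 1276, 1225 and 1163 CPM in pericytes and 0.902, 0.327 and 0.780 CPM in astrocytes. *Pdgfrb* was at 1629, 1577 and 1678 CPM in pericytes but also at 76.4, 76.1 and 79.1 CPM in astrocytes. The receptor gene was therefore higher in pericytes by a log2 fold change of 4.40 ± 0.055 (SE), far less than the 11.15 ± 0.098 of *Abcc9*, the 10.95 ± 0.099 of *Kcnj8* and the 10.77 ± 0.10 of *Higd1b*. Among single cells, 99.4% of pericytes and 49.6% of astrocytes had a *Pdgfrb* UMI, whereas *Abcc9* was found in 97.8% and 0.701%. With every cell thinned to 3285 UMIs, which 1969 pericytes and 8000 astrocytes had, the *Pdgfrb* shares were 98.7% and 21.6% and the *Abcc9* shares 96.4% and 0.212%. All 4 markers that the rule did not use were thus found in nearly every pericyte or at a far higher level than in astrocytes, and the cells carried the markers of their name. As a description, *Vtn* was at 12032, 11517 and 11550.1 CPM in pericytes and 5.41, 4.49 and 7.92 in astrocytes, and *Rgs5* at 5146, 5296 and 5302 and 2.52, 2.20 and 4.33 CPM.

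**Figure D1:**
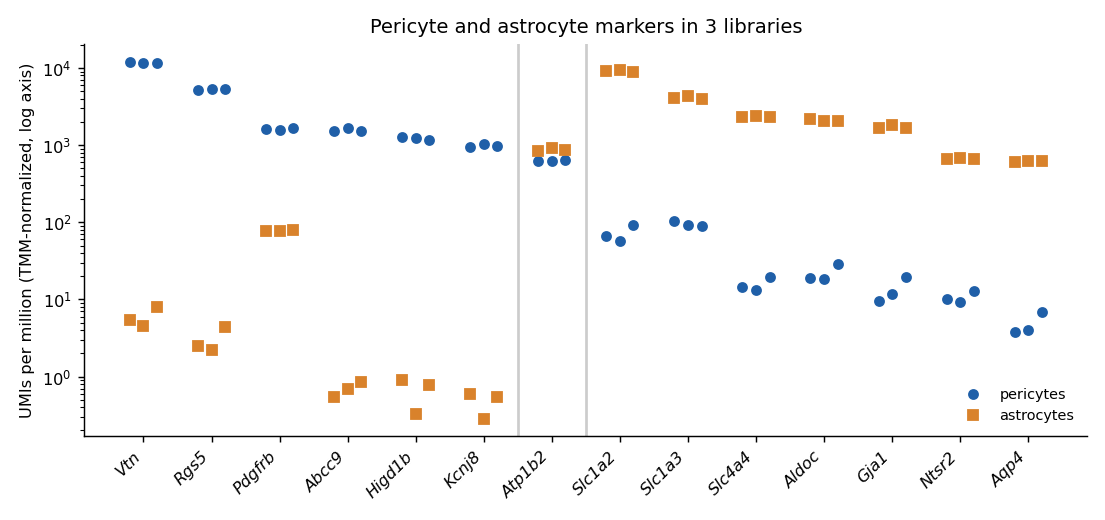
Level of 6 pericyte markers, the sort antigen gene Atp1b2 and 7 astrocyte markers in CPM after TMM (log axis), 1 point per library for pericytes (circles) and astrocytes (squares). The classes lie apart for every gene shown, and of these they lie closest at Atp1b2, with pericytes at 71.2% of the astrocyte level.

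Astrocyte genes were low in pericytes but not all alike. The rule capped *Slc1a2* and *Slc1a3*, which were at 0.792 ± 0.226% and 2.31 ± 0.224% (SD, n = 3 libraries) of their astrocyte level. Of the other 6 astrocyte markers, 5 were called lower, among them the water channel gene *Aqp4*, at 0.794 ± 0.273% of the astrocyte level, the gap junction gene *Gja1* at 0.793 ± 0.310%, the bicarbonate transporter gene *Slc4a4* at 0.675 ± 0.143% and the glycolytic gene *Aldoc* at 1.07 ± 0.306% (each SD, n = 3 libraries). The remaining one was *Atp1b2*, which encodes the antigen of the sort. *Atp1b2* was at 626, 617 and 640.3 CPM in pericytes and 852, 922 and 876 CPM in astrocytes, a log2 fold change of −0.49 ± 0.051 (SE) that did not reach the 2-fold limit of a call. At equal depth a UMI of *Atp1b2* was found in 86.4% of pericytes and 84.5% of astrocytes. The antigen's transcript was thus carried by most cells of both classes. *Ptprc* and *Itgam*, which encode the CD45 and CD11b antigens of the same sorting panel, had 0 UMIs in pericytes. In library 3 the astrocyte markers were somewhat higher in pericytes than in the other libraries, as with *Gja1* at 9.50, 11.9 and 19.3 CPM and *Aldoc* at 19.2, 18.3 and 29.0 CPM, and whether RNA from lysed astrocytes contributed was not tested.

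The profile was compared with that of astrocytes over all genes by edgeR's quasi-likelihood test with the library as a block, on counts summed per library and class. The 6 genes of the rule and mitochondrial genes were left out of the test, and a gene was called at a Benjamini-Hochberg adjusted p under 0.05 with at least a 2-fold difference. Of 15286 genes tested, 2909 were called higher (19.0%) and 4198 lower (27.5%) in pericytes, and the median log2 fold change of all genes was −0.10. The counts of every gene list below are to be set beside these shares. Without the 2 *Dcn*-rich astrocyte barcodes of library 3, a setting added after the data were seen, 2915 genes were called higher and 4201 lower, and no gene of the lists took another call. Since cells were selected on transcripts that separate these same classes, the calls are a description and the counts support nothing further. Of the genes tested, 82.1% had all 3 pericyte values on one side of all 3 astrocyte values. Of the genes whose values in both classes are given in the text, *Cdh5*, *Cldn5*, *Ly6c1* and *Pecam1* overlapped between the classes and no other did. Without TMM scaling the median log2 fold change of all genes moved by 0.21, to 0.11. The median coefficient of variation of a gene between the pericyte libraries was 4.31% over 1864 genes at 100 CPM or more.

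The 15 genes that led the pericyte side at 100 CPM or more were *Tbx3*, *Carmn*, *9930111J21Rik2*, *Rapgef5*, *Igf2*, *Perp*, *Dkk2*, *Slc38a11*, *Abcc9*, *Gja4*, *Car4*, *Nts*, *Ebf1*, *Kcnj8* and *Rgs4*, with log2 fold changes from 12.44 down to 10.86. *Tbx3*, a T-box transcription factor gene on chromosome 5 (119670669 to 119684724, GRCm38), was at 180.3, 169 and 181 CPM in pericytes, with 2156 UMIs there and 2 UMIs in all astrocytes, a ratio of pooled CPM of 8539 with an exact 95% counting interval of 2361 to 70551. *Carmn*, a long noncoding RNA of smooth muscle and mural cells, was at 459, 391 and 421 CPM against 0.0301, 0.0816 and 0.117 CPM. *Rapgef5*, an exchange factor for small G proteins of the Rap family, was at 1273, 1283 and 1182 CPM against 0.391, 0.408 and 0.390. The pericyte values of these genes varied little between libraries, while the astrocyte values rested on few UMIs, 33 for *Rapgef5* and 6 for *Carmn*. *Igf2*, a growth factor gene on chromosome 7 (142650766 to 142666816, GRCm38) whose product is also made by leptomeningeal fibroblasts, was at 618, 553 and 543 CPM against 0.0301, 0.204 and 0.351 in astrocytes. *Gja4*, the connexin 37 gene of the vessel wall, was at 298, 272 and 287 CPM and *Car4*, a membrane-bound carbonic anhydrase gene, at 714, 671 and 745 CPM. *Ebf1*, a transcription factor gene, was at 1632, 1661 and 1629 CPM against 0.781, 0.408 and 1.25. *Dkk2*, a modulator of Wnt signalling, had 1400 UMIs in pericytes and 3 in astrocytes, a ratio of 3696 with an interval of 1262 to 17946.

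On the astrocyte side the 10 genes that led were *Wdr17*, *Rgs20*, *Mgat4c*, *Cntn1*, *Mapk4*, *Eva1a*, *Dok6*, *Luzp2*, *Nol4* and *Gria2*, with log2 fold changes in pericytes from −8.12 to −7.65. *Gria2*, an AMPA-type glutamate receptor subunit gene, was at 5.74, 7.54 and 11.5 CPM in pericytes and 1571, 1684 and 1669 CPM in astrocytes. *Luzp2* was at 23.2, 16.2 and 26.5 CPM in pericytes and 4932, 4680.0 and 4294 CPM in astrocytes. *Cntn1*, an adhesion molecule gene, was at 0.663, 1.08 and 0.509 CPM in pericytes and 165, 168 and 163 CPM in astrocytes. All 10 genes were at between 0.359% and 0.500% of the astrocyte level in pericytes, which their choice as the lowest fold changes sets.

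**Figure D2:**
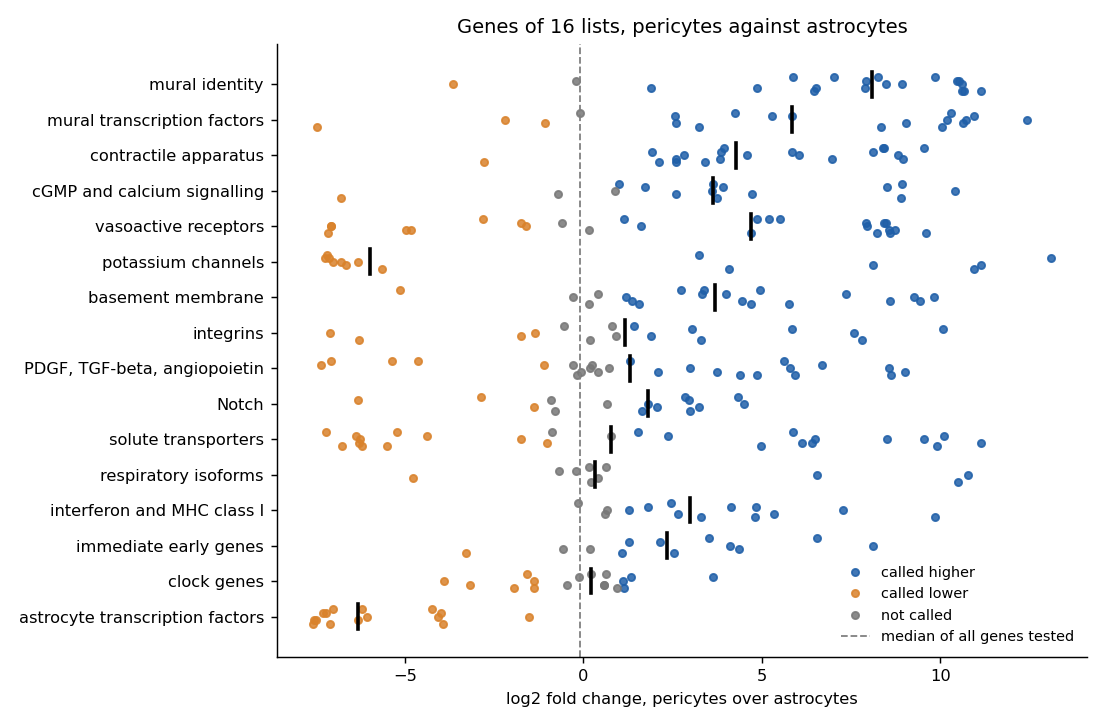
log2 fold change of pericytes over astrocytes for the tested genes of 16 lists, 1 point per gene, coloured by call, with a black bar at each list's median and a dashed line at the median of all genes tested (−0.10). Mural identity genes have a median of 8.09 and astrocyte transcription factors of −6.30, while the clock genes straddle 0 with a median of 0.21. The point farthest right is the channel gene Kcnmb1, which had 0 astrocyte UMIs, so its place is not a measured fold.

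Genes known for mural identity were nearly all higher in pericytes. Of 20, all of which were tested, 18 were called higher, 1 lower and 1 not, with a median log2 fold change of 8.09. *Anpep*, which encodes the aminopeptidase CD13, was at 145, 141 and 145 CPM against 0.0601, 0.0408 and 0.156. *Cspg4*, which encodes the proteoglycan NG2, was at 701, 721 and 725 CPM against 2.89, 2.82 and 3.35. *Atp13a5*, a P-type ATPase gene known as a marker of brain pericytes, was at 4055, 3930.2 and 3916 CPM against 65.2, 65.1 and 71.6. Its log2 fold change was 5.88 ± 0.070 (SE). The tetraspanin gene *Cd9* was lower, at 9.94, 8.62 and 11.96 CPM against 128, 132 and 125, and *Mfge8*, the gene of a secreted bridging protein, was at 1144, 1124 and 1152 CPM against 1271, 1419 and 1285, within the 2-fold limit.

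Transcription factor genes separated the classes in both directions. Of 19 tested mural factors of a list of 20, 15 were called higher and 3 lower (median log2 fold change 5.86, but 7.09 to 7.66 over 18 tested without library 3, with thinned cells, with the stricter pericyte gate or with mitochondrial UMIs under 3%), and of 15 tested astrocyte factors of 16, 15 were called lower (median −6.30). The T-box genes *Tbx2*, *Tbx15* and *Tbx18* were higher beside *Tbx3*. *Tbx18*, a classical mural marker, was at 137, 148 and 156 CPM against 0, 0.0816 and 1.37, where library 3 was the highest. The log2 fold change of *Tbx18* was 8.34 and became 10.64 without the 2 *Dcn*-rich astrocyte barcodes of that library. Among the forkhead genes, *Foxc1* was at 328, 305 and 302 CPM, *Foxd1* at 321, 308 and 332 CPM and *Foxf2*, which is known from cerebral small vessel disease, at 97.6, 97.3 and 106 CPM, each under 0.5 CPM in every astrocyte library. *Zic1* was at 770.3, 752 and 738 CPM against 0.301, 0.286 and 1.40. *Epas1*, which encodes the hypoxia-inducible factor HIF-2α, was at 649.7, 644 and 662 CPM against 107, 115 and 109, so it was a gene of both classes with a log2 fold change of 2.56 ± 0.049 (SE). On the other side, *Meis2* was at 1.55, 1.62 and 2.04 CPM against 311, 300.0 and 302, although it had been listed as a mural factor. *Sox9*, a master factor of astrocytes, was at 4.20, 1.62 and 2.80 CPM against 402, 391 and 425. *Nfia*, another factor of the astrocyte lineage, stayed at 512, 564 and 539 CPM in pericytes against 1532, 1570.5 and 1497, which was 35.1 ± 1.44% (SD, n = 3 libraries) of the astrocyte level.

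Some isoform genes of the respiratory chain and their paralogues differed between the classes. The list holds 11 genes of cytochrome oxidase subunits, *Ndufa4* and *Higd1* pairs and is not the whole chain. Of 10 tested, 3 were called higher, 1 lower and 6 not (median 0.32), which is near the share of all genes tested that were called (19.0% higher and 27.5% lower), so nothing is read from the list's counts. *Ndufa4l2*, a hypoxia-inducible paralogue of the cytochrome oxidase subunit gene *Ndufa4*, was at 1102, 1065 and 1066 CPM against 0.631, 0.490 and 1.09. *Ndufa4* itself was at 9.50, 13.2 and 13.5 CPM against 345, 313 and 317. The pair was thus swapped between the classes in all 3 libraries. *Cox4i2*, the isoform of subunit 4 known from lung and hypoxic tissue, was at 494, 413 and 441 CPM against 5.29, 4.25 and 4.95. The common isoform gene *Cox4i1* was at 374, 369 and 369.5 CPM against 465, 408 and 416, within the 2-fold limit, so pericytes carried both isoforms of this subunit. *Higd1b* was higher, as above, and its paralogue *Higd1a* was at 51.9, 43.4 and 46.3 CPM against 80.2, 74.95 and 74.7, not called.

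Potassium channel genes split by class with no tested gene left uncalled. Of 14 tested of 18, 6 were called higher and 8 lower (median −5.98). With no filter on low counts all 18 were fitted, of which 7 were higher, 8 lower and 3 not called, with a median of −2.30. Beside *Kcnj8* and *Abcc9*, the calcium-activated channel subunit gene *Kcnmb1* had 838 UMIs in pericytes, at 64.1, 73.8 and 69.7 CPM, and 0 UMIs in astrocytes, so it was at least 2213-fold higher against a floor of 3 UMIs over all astrocytes. The pore gene of that channel, *Kcnma1*, was the other way round, at 3.31, 1.62 and 1.02 CPM in pericytes against 215, 229 and 242 in astrocytes. *Kcnj10*, which encodes the astrocyte channel Kir4.1, was at 1.99, 0.269 and 1.27 CPM against 94.1, 106 and 98.8. *Kcnj11* and *Abcc8*, the channel partners known from pancreatic beta cells, were below the count filter, with 0 UMIs of *Kcnj11* in pericytes. The smooth muscle channel gene *Kcnj2* was likewise below it.

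Of 20 contractile genes tested of a list of 24, 19 were called higher and 1 lower (median 4.27). *Cald1*, which encodes caldesmon, was at 4383, 4145 and 4219.7 CPM against 5.14, 4.45 and 7.49. *Myl9*, a regulatory myosin light chain gene, was at 1284, 1258 and 1292 CPM against 3.43, 3.63 and 4.37. *Mylk*, the myosin light chain kinase gene, was at 478, 471 and 485 CPM against 3.79, 3.67 and 3.98. *Myh11*, the smooth muscle myosin heavy chain gene, was at 93.9, 80.8 and 92.4 CPM, with a UMI in 24.9% of pericytes, whereas *Cald1* was found in 99.95% of them. *Tagln* was at 3.53, 1.35 and 6.11 CPM and *Cnn1* had 1 UMI in all pericytes. By the rule *Acta2* was bounded, and 99.0% of pericytes had no *Acta2* UMI. The same limit left out the *Acta2*-high cells, which were richer in *Tagln* and *Myh11*, as given below. The low levels of such smooth muscle genes in pericytes are therefore set in part by the rule. *Pln*, which encodes the calcium pump inhibitor phospholamban, was at 0.221, 1.08 and 1.53 CPM against 6.88, 6.37 and 5.73 in astrocytes and was the gene called lower.

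Genes of the nitric oxide, cGMP and calcium pathway that relaxes and contracts mural cells were mostly higher. Of 15, all tested, 12 were called higher, 1 lower and 2 not (median 3.63). *Gucy1b1*, the shared subunit of the nitric oxide receptor guanylate cyclase, was at 1020.1, 955 and 954 CPM against 36.1, 36.5 and 38.4. *Prkg1*, the cGMP-dependent kinase gene, was at 1956, 1973 and 2023 CPM against 3.16, 6.53 and 7.33. *Pde5a*, which degrades cGMP, was at 425, 422 and 434 CPM against 0.932, 0.857 and 0.819. Receptor, kinase and phosphodiesterase thus were all higher in each library. *Mrvi1*, whose product links the kinase to the calcium store, was at 176, 173 and 174 CPM with 0.0601, 0 and 0.312 in astrocytes. The phospholipase gene *Plcb1* was the one called lower, at 8.17, 7.004 and 9.67 CPM against 884, 989 and 923. The call of *Itpr2*, a receptor of the calcium store, was marginal, with a log2 fold change of 1.01 ± 0.048 (SE) that fell under the 2-fold limit without library 1, without library 2, with no filter on low counts, with thinned cells and with the stricter pericyte gate, at 0.9485 to 0.9993.

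Receptors for vasoactive signals were divided between the classes, and 15 of 25 tested genes of a list of 33 were called higher and 8 lower (median 4.69). The median was 3.20 with 14 higher of 24 tested without library 1 and 3.09 with no filter on low counts. The endothelin receptors differed by class. *Ednra* was at 413, 406 and 430.1 CPM in pericytes against 16.4, 16.4 and 15.6 in astrocytes, and *Ednrb* at 14.4, 15.9 and 16.5 against 443, 432 and 451 CPM. *S1pr3* and *S1pr1*, receptors for sphingosine-1-phosphate, were split in the same way, with *S1pr3* at 642, 619 and 610.3 against 2.34, 2.45 and 2.96 CPM. *S1pr1* was at 7.73, 8.35 and 11.7 against 1230.4, 1334 and 1197 CPM. For adenosine, *Adora2a* was at 109, 114 and 109 CPM in pericytes against 0.631, 0.327 and 0.312, while *Adora1* and *Adora2b* were called lower. The thromboxane receptor gene *Tbxa2r* was at 252, 237 and 248 CPM against 0.271, 0.163 and 0.507, the neuropeptide Y receptor gene *Npy1r* at 107, 109 and 147 CPM against 0.421, 0.163 and 0.273, and the UDP-glucose receptor gene *P2ry14* at 976, 997 and 951 CPM against 35.2, 31.9 and 33.2. *Npy1r* had the widest spread between pericyte libraries of all genes at 100 CPM or more, with a coefficient of variation of 18.5%, and library 3 was the highest. The angiotensin receptor gene *Agtr1a* was below the count filter, with 0.221, 1.89 and 1.53 CPM in pericytes. The adrenoreceptor genes were sparse, with *Adra1a* at 21.4, 25.6 and 20.4 CPM against 63.2, 68.6 and 74.0 and *Adra2a* at 7.95, 6.47 and 10.2 against 3.13, 4.29 and 3.94. The last of these calls rested on library 3, since the log2 fold change of *Adra2a* without it was 0.996, under the 2-fold limit.

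Regulators of G protein signalling other than *Rgs5* were mixed, with 4 higher, 5 lower and 3 not called of 12 tested of 18 (median −0.46). Of all genes tested, 19.0% were called higher and 27.5% lower. *Rgs4*, which has been placed beside *Rgs5* in mural cells, was at 1379, 1464 and 1355 CPM against 0.541, 0.776 and 0.975. *Rgs10* was at 69.6, 67.3 and 78.4 CPM against 0.180, 0.0816 and 0.195. In astrocytes the high members were *Rgs20*, at 1167, 1192 and 1249.8 CPM against 3.76, 4.58 and 6.36 in pericytes, and *Rgs7*, at 878, 795 and 825 against 7.07, 1.89 and 4.84.

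Most basement membrane genes were higher in pericytes than in astrocytes. Of 20 basement membrane genes tested of 22, 16 were called higher, 1 lower and 3 not (median 3.68). The median was 4.34 without library 3 and 4.59 with astrocytes under 3 *Dcn* UMIs, with the same counts of calls. The type IV collagen genes *Col4a1* and *Col4a2*, which form the network of the sheet, were at 731, 689 and 776 CPM against 14.4, 12.3 and 13.4 and at 348, 351 and 381 CPM against 15.4, 17.6 and 16.7. The laminin genes *Lama4*, at 316, 304 and 315 CPM, *Lamb1*, at 131, 130.1 and 143 CPM, and *Lamc1*, at 650.3, 647 and 650.3 CPM, were all higher than in astrocytes. *Lama2*, another laminin chain, was at 933, 891 and 925 CPM against 796, 848 and 808 and not called, so this chain was found in both classes, and *Lama5* and *Nid2* were not called either. *Fbln5*, the gene of an elastic fibre protein, was the one called lower. *Nid1*, a linker between laminin and collagen, was at 607, 582 and 593 CPM against 0.511, 0.367 and 1.09. Fibronectin (*Fn1*) was at 3.53, 5.12 and 11.2 CPM against 0.812, 0.653 and 0.351, highest in library 3. Among 16 integrin and adhesion genes tested of 18, 8 were higher and 4 lower (median 1.16). Of the lower genes, *Itga2* and *Itga3* had 4 and 8 UMIs in all pericytes. Both calls were lost without library 1, without library 3 and in DESeq2, and neither gene was tested with thinned cells, so that 2 genes were lower in each of these. *Itga1*, a collagen and laminin receptor subunit gene, was at 1527, 1535 and 1503 CPM against 7.57, 6.45 and 6.12. The laminin receptor subunit gene *Itga6* was instead at 1.77, 0.539 and 3.31 CPM against 148, 144 and 154. *Itgb1*, the shared β1 chain, was at 1139.6, 1075 and 989 CPM against 111, 109.8 and 107. The α chains of the laminin receptors thus differed by class in each library. Of interstitial matrix genes, 6 of 8 tested of 12 were higher and 1 lower, *Col1a2* at 188, 193 and 192 CPM against 11.2, 12.9 and 15.95 but *Col1a1* at 0, 0.808 and 0.509 against 8.72, 8.57 and 10.5, so the chains of type I collagen did not go together.

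In the platelet-derived growth factor, TGF-β and angiopoietin pathways, 13 of 25 tested genes of 26 were higher, 5 lower and 7 not called (median 1.30). The receptors of TGF-β *Tgfbr2*, at 111, 110.5 and 105 CPM against 1.95, 2.49 and 2.18, and *Eng*, at 184, 176 and 187 against 0.361, 0.245 and 0.429, were higher. The ligand genes *Pdgfb* (6.63, 9.43 and 9.93 CPM) and *Pdgfa* (67.8, 59.3 and 52.7 CPM) were also called higher, and *Pdgfc* and *Pdgfd* were lower. *Vegfa*, the vascular growth factor, was at 9.50, 8.35 and 8.14 CPM against 213, 222 and 212. In the Notch pathway 9 of 15 tested genes of 16 were higher, 3 lower and 3 not (median 1.81). *Notch3*, the mural receptor mutated in the small vessel disease CADASIL, was at 966, 963 and 984 CPM against 40.7, 42.0 and 46.6. The Notch target genes *Heyl*, at 194, 196 and 228 CPM against 19.9, 24.2 and 21.5, and *Hey2*, at 143, 158 and 149 against 17.0, 20.7 and 18.7, were higher, and *Hes5*, a Notch target in glia, was at 8.84, 4.04 and 9.42 against 636, 550.1 and 596. *Rbpj*, the gene of the shared DNA-binding partner, was at 91.5, 96.7 and 93.1 CPM against 58.8, 60.2 and 58.8, not called. Of 15 genes tied to cerebral cavernous malformation, brain calcification and small vessel disease, 8 were higher, 4 lower and 3 not (median 1.05). Of all genes tested, 19.0% were called higher and 27.5% lower, so nothing is read from this list's count of lower genes. Among the calcification genes, *Pdgfrb* and *Pdgfb* were higher, *Xpr1*, *Myorg* and *Jam2* lower, and *Slc20a2*, a phosphate transporter gene, was at 49.9, 56.3 and 56.8 CPM against 89.7, 104 and 105, not called.

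Solute carriers divided nearly evenly, with 12 higher, 11 lower and 2 not of 25 tested of 26 (median 0.77). *Slc6a20a*, a proline transporter gene, was at 1809, 1715 and 2036 CPM against 1.23, 0.857 and 3.86. *Slc19a1*, the reduced folate carrier gene, was at 462, 439.9 and 496 CPM against 5.11, 5.43 and 5.07. *Slc22a8*, the organic anion transporter 3 gene, was at 378, 340.2 and 342 CPM against 0.240, 0.163 and 0.546. All 3 were apart in every library. The GABA transporter genes were split by isoform, with *Slc6a13* (GAT2) at 130.1, 124 and 145 CPM in pericytes against 0.0902, 0 and 1.05 and *Slc6a11* (GAT3) at 8.39, 5.66 and 9.67 against 558, 598 and 603. The glucose transporter gene *Slc2a1*, which is best known from the endothelium, was lower, at 24.5, 24.8 and 29.8 CPM against 86.8, 89.5 and 89.7.

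Secreted factors gave 11 higher, 10 lower and 2 not called of 23 tested of 29 (median −0.51), and the sign of that median rests on the count filter, since it was 1.74 with 13 higher and 10 lower of all 29 genes when no filter was applied. One of the genes called higher, the chemokine gene *Ccl19*, has more than one entry under its symbol in the files, of which one was tested, and its value is uncertain. *Ptn*, which encodes pleiotrophin, was at 11272, 10426 and 10450.4 CPM against 3165, 3091 and 2964. *Igfbp7* was at 3025, 3004 and 3007 CPM against 2.52, 1.14 and 5.38, while *Igfbp2* and *Igfbp5* were lower. *Il34*, a ligand of the microglial receptor CSF1R, was at 601, 586 and 582 CPM against 0.451, 0.408 and 1.05, and *Csf1*, the other ligand, at 10.8, 12.7 and 11.7 against 30.4, 30.5 and 30.3. The ligands of this receptor were thus highest in different classes. *Cxcl12* was at 209.9, 172 and 195 CPM against 1.35, 0.531 and 1.56. *Apoe* was at 272, 228 and 309 CPM against 12426, 12295 and 12017, 2.21 ± 0.361% (SD, n = 3 libraries) of the astrocyte level. Interferon and MHC class I genes were higher in 11 of 14 tested of 16 with 0 lower (median 2.98). With thinned cells 9 of 11 tested were higher and the median was 4.36. *Ifitm3* was at 494, 467 and 437 CPM against 3.34, 2.29 and 3.24, *B2m* at 176, 194 and 181 against 33.0, 35.03 and 32.5 and *H2-D1* at 176, 171 and 178 against 6.40, 5.31 and 6.98, while *H2-K1* was at 81.7, 78.1 and 81.7 against 54.9, 53.8 and 51.4 and not called.

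Genes of rapid response, of the clock and of glucocorticoids were read in tissue that was dissociated with transcription blocked. Of 12 immediate early genes tested of 18, 9 were higher, 1 lower and 2 not (median 2.34), and none but *Jund*, *Btg2* and *Ier3* reached 100 CPM on average. With no filter on low counts the median over all 18 was 1.21. *Egr1* was at 36.7, 16.2 and 18.3 CPM against 0.271, 0.367 and 0.117, highest in library 1. *Fos* was at 0.221, 0.269 and 0.764 CPM against 2.74, 4.45 and 5.30. *Arc*, *Npas4*, *Fosb* and *Egr2* had 0 UMIs in pericytes. Of 17 clock genes, all tested, 4 were higher, 6 lower and 7 not (median 0.21), shares near the 19.0% and 27.5% of all genes tested, so the list does not stand apart by its counts. Of its single genes, the output factors *Dbp*, at 222, 211 and 167 CPM against 99.4, 88.7 and 85.1, and *Hlf*, at 325, 331 and 271 against 140.3, 145 and 140.4, were higher, and library 3 was the lowest of the pericyte libraries for both. Another output factor, *Tef*, at 110, 115 and 87.8 CPM in pericytes, was not called. *Npas2* was lower, at 16.8, 17.0 and 17.1 CPM against 235, 287 and 249. Of 14 glucocorticoid genes, all tested, 1 was higher, 5 lower and 8 not (median −0.45), where the higher gene was *Sgk1*, again near the shares of all genes tested. The count depended on the fit, with 2 higher and 6 lower without library 1, where *Errfi1* was added to the higher and *Cdkn1a* to the lower genes. With library sizes without TMM there were 3 higher and 4 lower, since *Errfi1* and *Per1* were added and *Tsc22d3* was lost. The receptor gene *Nr3c1* was at 186, 169 and 189.6 CPM against 198, 206 and 209, and its targets *Fkbp5* and *Klf9* were not called either. The metallothionein gene *Mt1* was at 86.4, 92.7 and 94.2 CPM against 3319.9, 3340.4 and 3150.3.

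Markers of other cells were checked in the same way. For endothelium, 4 of 5 tested genes of 7 were called higher, with a summed level of all 7 of 164, 173 and 182 CPM in pericytes against 6.85, 1.55 and 1.68 CPM in astrocytes. *Flt1*, which encodes VEGFR1, a receptor that traps vascular growth factor, held most of it, at 129, 123 and 117 CPM, and was found in 37.2% of pericytes. *Kdr*, which encodes VEGFR2, was also called higher, at 11.7, 20.7 and 14.3 CPM in pericytes, with 186 UMIs there and 3 in astrocytes, as was the organic anion transporter gene *Slco1a4*, at 21.9, 27.2 and 32.6 CPM against 0.631, 0.122 and 0.0780. *Cdh5*, *Pecam1* and *Ly6c1*, which define endothelium, were at 0, 0 and 0.509, at 0.884, 1.35 and 1.53 and at 0, 0.269 and 2.04 CPM in pericytes and at 0.120, 0 and 0, at 1.83, 1.35 and 1.37 and at 0.751, 0.0408 and 0.0390 CPM in astrocytes, with overlap between the classes. *Cldn5* was at 0.884, 0.269 and 14.3 CPM against 1.23, 0 and 0.117, its 61 UMIs lay in 7 cells, and without library 3 its log2 fold change turned from 3.16 to −0.12 and the call was lost. For fibroblasts the sum over 7 genes was 953, 882 and 897 CPM, led by *Igf2* and with *Col1a2* and *Slc6a13* also called higher, while *Lum*, *Pdgfra* and *Col1a1* were at or near 0. For smooth muscle the sum over 6 genes was 1424, 1378 and 1429 CPM, led by *Myl9*. For microglia and macrophages the sum over 9 genes was 22.8, 26.9 and 32.1 CPM against 20.6, 21.2 and 17.0 CPM in astrocytes, with *C1qa*, *C1qb*, *Ptprc* and *Itgam* at 0 in pericytes and *Mrc1* the most abundant. Some markers of other vessel cells were thus carried by pericytes and others were at or near 0. The limits on *Acta2* and *Dcn* left out cells rich in smooth muscle and stromal genes. Low levels of such genes, as of *Pdgfra*, are therefore set in part by the rule. The 5 oligodendrocyte genes summed to at most 6.73 CPM, the 5 oligodendrocyte precursor genes to at most 1.10 CPM and the 4 globin genes to at most 1.33 CPM. Neuronal genes summed to 322, 305 and 341 CPM, nearly all of it from the long noncoding RNA *Meg3*, which many cells carry, and ependymal genes to 437, 436 and 423 CPM from *Rarres2*, with *Ccdc153* at 0. Whether RNA from other cells contributed to the shared genes was not tested.

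Next to pericytes, 20 barcodes had at least 5 *Acta2* UMIs and 30 had at least 3 *Dcn* UMIs with few *Slc1a2* and *Slc1a3* UMIs. No library held 10 of the *Acta2*-high cells, so no test was made, and values were pooled over libraries without TMM. They were at 2218 CPM of *Tagln*, 1446 of *Myh11* and 3963 of *Crip1*, against 3.97, 96.1 and 247 in pericytes. In the other direction the channel genes *Kcnj8*, at 1059 CPM in pericytes against 104, and *Abcc9*, at 1696 against 195, were lower in them. *Cald1* was at 4576 CPM in pericytes and 3872 CPM in *Acta2*-high cells, a smaller difference than any of these. The *Dcn*-positive cells had a median of 3, 4 and 5.5 *Dcn* UMIs in libraries 1, 2 and 3 and a highest value of 7, 28 and 43. Many of them thus lay at or near the limit of 3, and the pooled values mix these with a few cells that had far more *Dcn*. Their lowest count of *Vtn* and *Rgs5* was 1 UMI, in library 2, where the median was 94. Pooled, they were at 1622 CPM of *Abcc9* against 1696 in pericytes, 1141 of *Kcnj8* against 1059 and 3467 of *Cald1* against 4576. Stromal genes were higher in the pooled values, with *Slc6a13* at 541 CPM against 143, *Pdgfra* at 174 against 0.0883 and *Apod* at 1205 against 204. Only libraries 1 and 2 held 10 or more such cells, 11 in each. In edgeR's quasi-likelihood test on these 2 libraries, 0 of 10458 genes (0%) were called higher and 0 (0%) lower in pericytes. An unadjusted p under 0.05 was found for 206, of which 142 were higher and 64 lower. That is a smaller share of the genes than a limit of 0.05 gives with no difference at all. DESeq2 called 0 as well, and the smallest adjusted p of edgeR was 1.00. With no filter on low counts, edgeR called 7 genes lower in pericytes. The *Dcn*-positive sums held only 76545 and 75835 UMIs, against 4261039 and 3436138 in pericytes, and the fit left 1 residual degree of freedom. Such a test can hardly detect a difference, so nothing is read from the lack of calls.

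**Figure D3:**
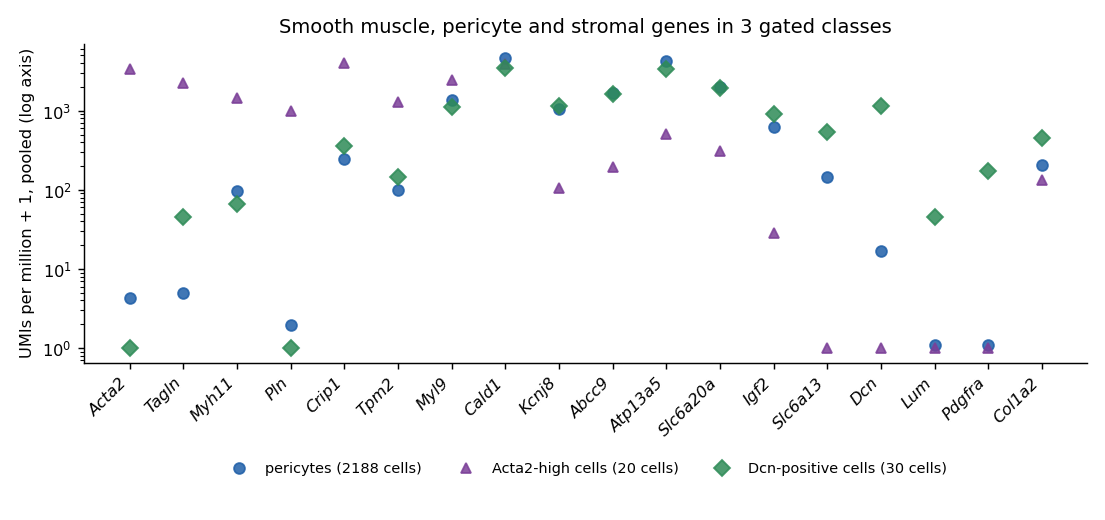
Pooled level plus 1, in CPM (log axis), of 18 genes in pericytes, Acta2-high cells and Dcn-positive cells, 1 point per class over 3 libraries and without an error. Acta2 and Dcn chose the classes, so their places are set by the rule. Of the other genes, Tagln and Pln lie highest in Acta2-high cells, Kcnj8 and Abcc9 lie lowest in them, and Slc6a13, Lum and Pdgfra lie highest in Dcn-positive cells.

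Per cell, pericytes gave fewer UMIs than astrocytes. The median pericyte held 4844 UMIs in library 1 and a mean of medians over libraries of 5025, against 10294 in astrocytes, a ratio between 0.484 and 0.490 in the 3 libraries. Genes per cell were 0.688 times as many, at 2395 against 3480.5 (mean of medians). Transcripts of ribosomal proteins took 3.04% of a pericyte's UMIs against 1.19%, a ratio between 2.44 and 2.64. Hashtag antibodies, which bind surface proteins common to most cells, gave 26.3 UMIs per pericyte against 9 per astrocyte (mean of library medians), a ratio of 3.00 with 2.33 to 3.71 in single libraries. For the strongest hashtag alone the ratio was 5.04. Pericytes were on the same side in 3 of 3 libraries in each of these measures, and the 2-sided exact permutation p was 0.25, the smallest that 3 libraries allow.

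Pericytes also varied among themselves, which was measured as the ratio of variance to mean of a gene's UMIs after thinning each cell to 3285 UMIs. Poisson sampling alone gives a ratio of 1. Over 5747 genes with at least 0.1 UMI per cell on average over the libraries, the median ratio was 1.12 and the 95th percentile 1.51. Among the 15 genes with the highest ratios, ordered by the lowest of the 3 libraries, were *Gm42418*, *Malat1*, *Spp1*, *Vtn*, *Ptn*, *AY036118*, *Mgp*, *Camk1d*, *Nts*, *Dgkb*, *Cmss1*, *Grm7*, *Tmsb4x* and *Dlc1*, where *Vtn* was part of the rule. *Spp1*, which encodes osteopontin, had ratios of 14.1, 10.5 and 20.2 in the 3 libraries and a UMI in 35.7%, 33.4% and 30.0% of pericytes. The 10% of pericytes with the most *Spp1* held 67.7%, 68.4% and 75.5% of its UMIs. *Spp1* was thus not found in most pericytes and abundant in some. Astrocytes had an *Spp1* UMI in 0.0875% of cells at the same depth. *Nts*, the neurotensin precursor gene, was found in 28.4%, 33.2% and 33.0% of pericytes. *Dgkb*, a diacylglycerol kinase gene, was found in 31.5%, 35.1% and 38.1%. It was also a gene of astrocytes, which held 52783, 40610 and 41286 *Dgkb* UMIs in libraries 1, 2 and 3. Whether astrocyte RNA contributed to the *Dgkb* UMIs of pericytes was not tested. *Mgp*, which encodes matrix Gla protein, an inhibitor of calcification, was found in 74.1%, 68.2% and 67.5%.

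**Figure D4:**
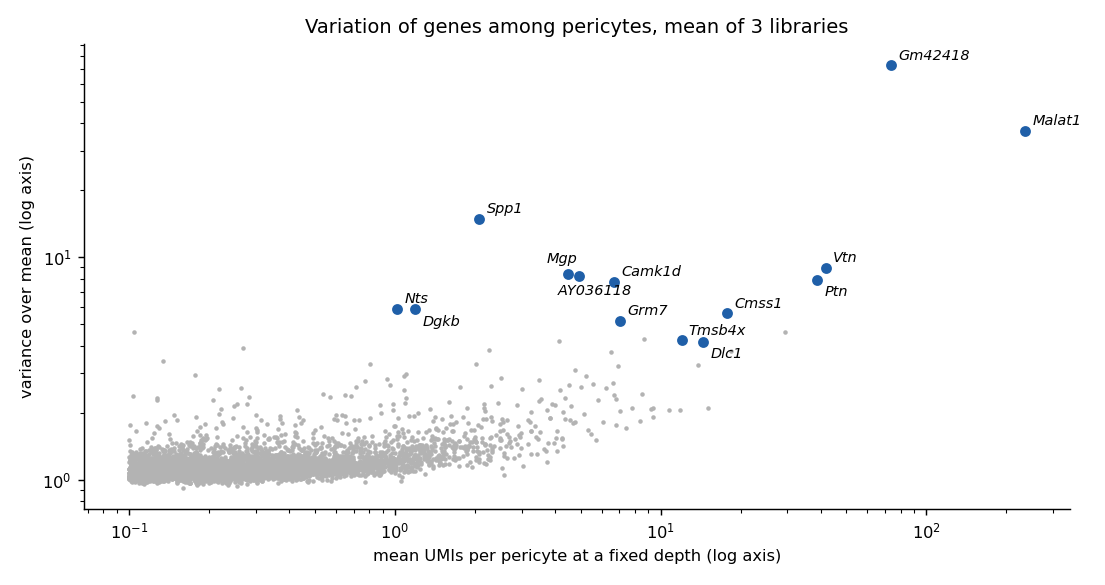
Variance over mean against the mean number of UMIs per pericyte (both log axes) for 5747 genes, as the mean of 3 libraries after thinning to 3285 UMIs, with genes among the 15 most variable marked and named. Spp1, Nts and Dgkb stand far above genes of similar mean.

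*Gm42418*, *AY036118*, *Cmss1* and *Camk1d* rose and fell together across cells, with Spearman's rho between *Gm42418* and *Cmss1* of 0.730, 0.743 and 0.728 in the 3 libraries. *Gm42418* and *AY036118* are known to overlap ribosomal RNA repeats. The correlations are across cells of the same library at equal depth and are given as a description. *Spp1* and *Dgkb* were inversely related, with a rho of −0.32, −0.33 and −0.27. A *Dgkb* UMI was found in 12.5%, 13.9% and 19.7% of pericytes with *Spp1* but in 42.1%, 45.7% and 46.0% of those without. Both were found together in 4.47%, 4.65% and 5.90% of pericytes, where the product of their shares was 11.3%, 11.7% and 11.4%. *Serpini1*, which encodes the protease inhibitor neuroserpin and was chosen after its values were seen, went with *Dgkb*, since it was found in 70.8%, 63.7% and 58.6% of *Dgkb*-positive pericytes and in 34.9%, 39.3% and 37.1% of the rest. *Nts* was found in 35.3%, 38.7% and 44.1% of *Spp1*-positive and 24.5%, 30.5% and 28.2% of *Spp1*-negative pericytes. *Ptn*, *Spp1* and *Igf2* were each positively related to one another, as with *Ptn* and *Spp1* (rho 0.22, 0.23 and 0.27) and *Ptn* and *Igf2* (0.29, 0.25 and 0.26). All 3 were inversely related to *Dgkb*, *Serpini1* and *Crip1*, as with *Ptn* and *Dgkb* (−0.25, −0.28 and −0.25) and *Spp1* and *Serpini1* (−0.32, −0.27 and −0.28). *Igf2* and *Crip1* were chosen after their values were seen. *Dlc1* was inversely related to *Ptn* (rho −0.34, −0.31 and −0.31) and to *Tmsb4x* (−0.31, −0.33 and −0.37). The direction of each relation given here was the same in 3 of 3 libraries. Each library pools several mice, cells were not assigned to mice here, and the part of differences between mice was not tested.

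**Figure D5:**
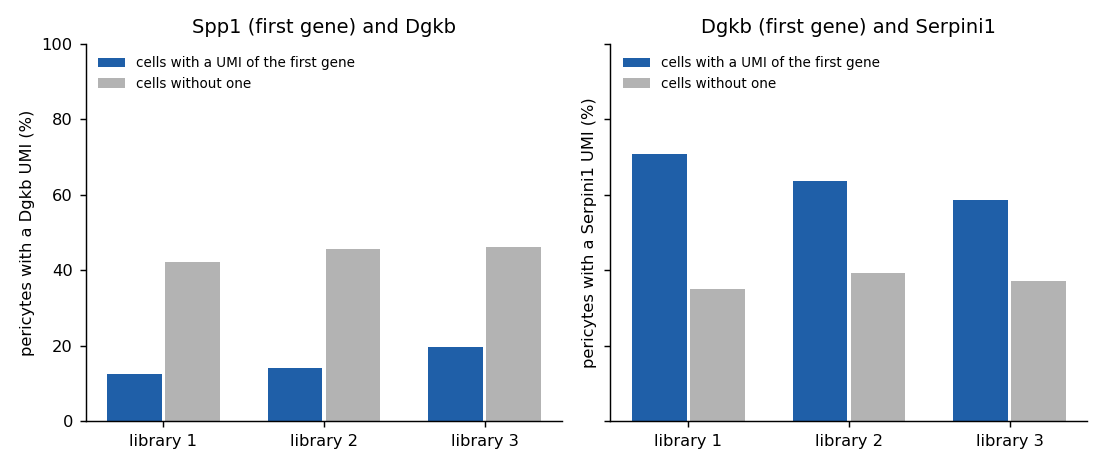
Share of pericytes (%) with a Dgkb UMI among cells with and without an Spp1 UMI (left), and with a Serpini1 UMI among cells with and without a Dgkb UMI (right), per library at 3285 UMIs per cell. Dgkb is found in 12.5% to 19.7% of Spp1-positive and in 42.1% to 46.0% of Spp1-negative pericytes.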

How the data were processed

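Single-cell libraries of ACSA-2-sorted amygdala cells were analysed from the deposited matrices of UMI counts per gene, hashtag and barcode. The authors made these counts with Cell Ranger against mm10 (version 7.0.0 per the file headers, 3.0 per the submitters' processing notes), and doublets were gated out at the sort. No doublet caller was run here, and 100 barcodes that met both class limits were left out. The hashtag table served only to count mice per library, and no cell was assigned to a mouse. Pericytes were chosen by the UMIs of *Vtn*, *Rgs5*, *Slc1a2*, *Slc1a3*, *Acta2* and *Dcn*. The members and gene lists were chosen with earlier results of these data known.

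Counts were summed per library and class and tested with edgeR 4.0.16 (R 4.3.3; filterByExpr, TMM, quasi-likelihood, library as a block because both classes of a library come from the same mice), with Benjamini-Hochberg adjustment over all genes tested. Rule genes and mitochondrial genes were not tested. Named genes were the 15 highest and 10 lowest log2 fold changes among called genes at 100 CPM or more in the higher class, leaving out rule genes, mitochondrial genes and symbols that are Gm with a number or end in Rik (which keeps *9930111J21Rik2*, a gene model), with the list genes and the 15 most variable genes added. DESeq2 1.42.0, other scalings, gates and filters, and leaving out each library were alternatives. Each pericyte library summed 3436138 to 4261039 UMIs. Intervals and floors cover counting error only at a level of 95%. Some genes that met these rules are not reported here. Gene positions came from GENCODE vM21 and promoters from RefSeq. Other tools were Python 3.11.15, numpy 2.4.6, pandas 2.3.3, scipy 1.17.1 and matplotlib 3.10.9.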

Additional observations from a re-analysis of the deposited data

How the results depend on the processing

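Of 15286 genes tested between pericytes and astrocytes, 2909 were called higher and 4198 lower, and with no minimum fold 5616 and 6519 were. Leaving out 1 library at a time gave 2813 to 2841 higher and 4034 to 4232 lower. The paired fit was the main one, since both classes of a library share its mice, and with no replicate block it gave 2912 and 4232. DESeq2 gave 2859 and 3949, thinned cells 2612 and 3300, the stricter pericyte gate (1956 barcodes) 2872 and 4211, and a mitochondrial limit of 3% (2083 barcodes) 2886 and 4136. With no filter on low counts there were 3050 and 4770, and with astrocytes under 3 *Dcn* UMIs, added after the data were seen, 2915 and 4201. Library sizes without TMM gave 3405 and 3768, and the called genes that were higher went from 40.9% to 47.5%.

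The 25 leading genes were chosen as the most extreme fold changes of these same data, so their side could hardly change. They stayed on it in all 9 alternatives run for them, and no log2 fold change of theirs moved by more than 1.87. Of the list genes, 13 took another call without TMM, 10 without library 1, 4 without library 2 and 7 without library 3, among them *Itpr2*, *Adra2a*, *Itga2*, *Itga3* and *Cldn5*, and the cause was not tested. Among list medians, immediate early genes went from 2.34 to 1.21 and interstitial matrix genes from 3.47 to 2.84 with no filter on low counts. Interferon and MHC genes went from 2.98 to 4.36 with thinned cells. Basement membrane genes went from 3.68 to 4.34 without library 3 and to 4.59 with astrocytes under 3 *Dcn* UMIs. Against *Dcn*-positive cells, 7 genes were called lower in pericytes with no filter on low counts, while no other alternative that was run called a gene. The ratio of hashtag UMIs of 3.00 became 2.84 with means, 5.04 with the strongest hashtag and 2.70 to 3.41 with a library left out. The comparison with *Acta2*-high cells, and leaving out a library against *Dcn*-positive cells, were not run because too few libraries held 10 cells.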
